A study of Mus musculus with 6 samples.

Results

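The cells described here are the Il9-zero cells of a T helper 9 (Th9) culture: single mouse CD4 T cells in which the corrected count of Il9 was 0 and which the authors had placed in clusters 0 to 5. They numbered 10539 of 27258 cells, 6851 of them wild type and 3688 from Cblb-/- mice. Naive CD4+ T cells from mouse spleen had been cultured for 48 h with hTGFβ (3 ng/ml), IL-4 (20 ng/ml) and anti-IFNγ (20 µg/ml) and then purified on CD4 beads, and the same medium served both genotypes. The groups are wild-type control and Cblb-/-, with 3 droplet libraries each (10x Genomics, read at the 3' end; each molecule carries an identifier, and the distinct ones, UMIs, are counted). The deposited table names libraries by sequencing index and genotype; here wild-type libraries are A, B and C, and knockout libraries D, E and F. The labels give no age, sex or strain and do not say which cells lack Cblb, and no label ties a library to a mouse, so a p-value sets the difference against library-to-library spread only.

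IL-9 is the cytokine that names Th9 cells, which naive CD4 T cells become under TGF-beta and IL-4. Cblb encodes CBL-B, a ubiquitin ligase that restrains signals from the T cell receptor and CD28, so that T cells without it need less costimulation. TGF-beta without a strong inflammatory signal also favours Foxp3, which defines regulatory T cells. The question here was which differences between the genotypes are seen in the Il9-zero cells.

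These cells were chosen by their Il9 values, so their number is a description and carries no test. Il9-zero cells were 53.8%, 58.5% and 49.2% of the cells of wild-type libraries A, B and C and 26.7%, 36.5% and 13.1% of those of knockout libraries D, E and F. The knockout libraries therefore gave a smaller and more uneven set, 914 cells in D, 2067 in E and 707 in F. Cells just outside the rule, with an Il9 value of 1, were 17.4%, 18.1% and 20.1% of cells in A, B and C and 20.7%, 21.4% and 18.7% in D, E and F. The Il9 value is corrected to a common depth, so this rule is not proof of an absent transcript or of an absent raw count. Raw depth was not lower in Il9-zero cells. The median raw total was 36930 to 44193 UMIs per library in Il9-zero cells and 34677 to 39101.5 in Il9-positive cells. It was higher in Il9-zero cells in each of the 6 libraries. Raw counts of Il9 were not used here, so this depth does not show whether Il9 was counted before correction.

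The set was made of different clusters in the 2 genotypes. Cluster 0 held 41.4%, 40.6% and 42.4% of the Il9-zero cells of A, B and C and 74.3%, 62.8% and 73.0% of those of D, E and F. Cluster 1 held 37.4% to 38.7% in wild type and 11.5%, 21.3% and 10.7% in D, E and F. Cluster 3 held 9.57% to 10.3% in the wild-type and 2.63% to 3.97% in the knockout libraries, and cluster 5 held 6.35% to 6.72% and 1.20% to 1.94%. Cluster 4 went the other way, 3.58% to 4.90% against 9.92% to 11.5%. Cluster 2 held 0 of the Il9-zero cells, since the lowest Il9 value among its 2716 cells was 11. Many results below are therefore set beside those within a cluster or with 1 set of cluster weights in every library. The latter, called fixed cluster weights, were 55.8% cluster 0, 26.2% cluster 1, 6.56% cluster 3, 7.37% cluster 4 and 4.07% cluster 5. The authors' clusters rest on expression in these same cells, so holding them fixed can also remove part of a gene's own change. Few knockout cells stand behind 2 of the weights. Cluster 3 had 24, 82 and 21 Il9-zero cells in D, E and F, and cluster 5 had 11, 40 and 13.

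**Figure D1:**
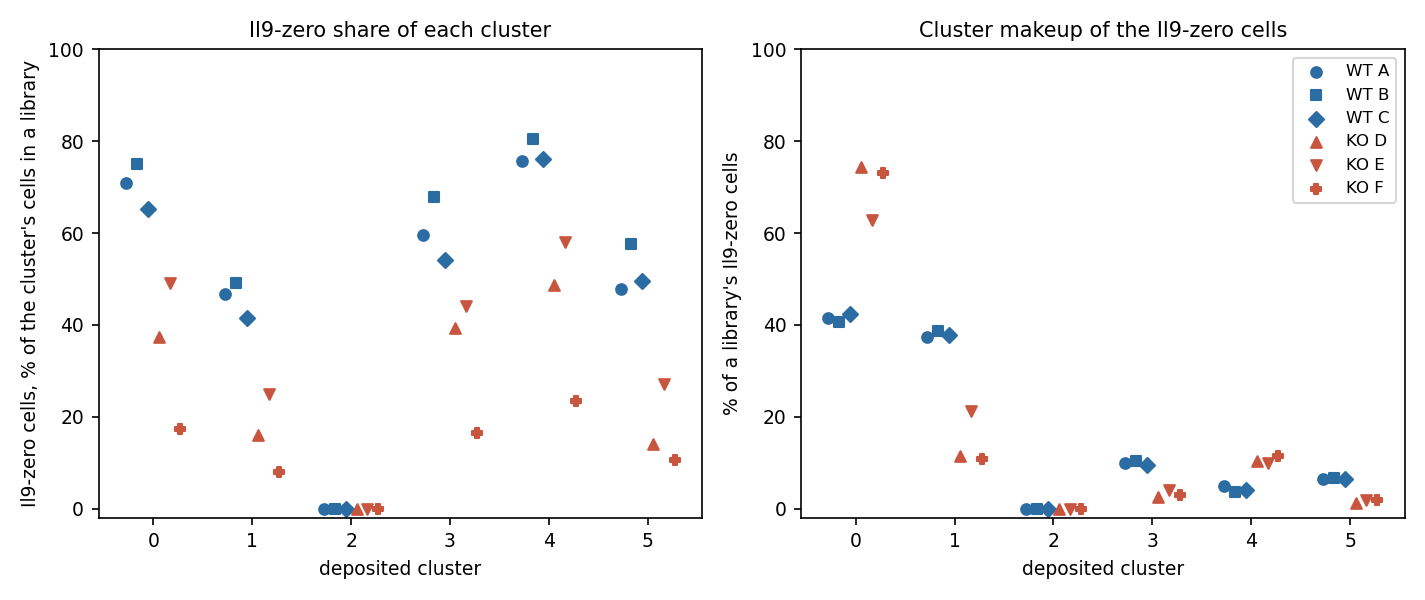
Left, Il9-zero cells as a percentage of each deposited cluster's cells, and right, each cluster's percentage of a library's Il9-zero cells, with 1 point per library (blue, wild type; red, knockout). Cluster 2 stands at 0 in every library, and cluster 0 makes up 62.8% to 74.3% of Il9-zero cells in knockout libraries against 40.6% to 42.4% in wild-type libraries.

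Levels are given in ppm (parts in 1000000) of the corrected counts summed over a library's Il9-zero cells. The labelled cell type was met: Cd3e, a chain of the T cell receptor complex, stood at 188 to 192 ppm in wild type and 148 to 164 ppm in knockout libraries, and Cd4 at 92.2 to 95.8 and 75.8 to 85.6 ppm. Of the Th9 factors Irf4 stood at 188 to 213 ppm and Batf at 110 to 236 ppm, while Spi1 (PU.1) was at most 0.07 ppm. Other cell types were nearly absent by their summed markers, at 0.48 to 1.07 ppm for mast cells (6 genes), 1.39 to 1.88 for myeloid cells (4 genes) and 0.47 to 1.51 for gamma delta T cells (2 genes). The 5 B cell markers summed to 3.55 to 3.93 ppm in wild type and 9.39 to 10.9 ppm in knockout libraries through Cd79b and Ebf1, while Ms4a1 (CD20) stood at most at 0.03 ppm. Cd8b1 rose from 6.92 to 8.01 ppm to 11.2 to 13.8 ppm, with Cd8a at most at 0.15 ppm. The part of these markers in the results below was not tested. Knockout library E lay nearest to the wild type: of the 12 largest rises described below it was the lowest knockout library for 10, and of the 12 largest falls the highest for 8. Barcode sequences shared between libraries marked 152 cells, 60 of them Il9-zero, and without these cells 936 of the 945 rises and 1017 of the 1023 falls that could be tested were still called.

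Cblb (chromosome 16, 52031225 to 52208048, mm10), the targeted gene, stood at 37.2, 34.0 and 34.7 ppm in A, B and C and at 21.2, 16.6 and 20.2 ppm in D, E and F. The groups did not overlap, and transcript was left in every knockout library. The difference was -0.84 on the log2(ppm + 1) scale (SE 0.09, limma adjusted p = 0.00084), and -0.93 within cluster 0 and -0.95 within cluster 1. Reads at the 3' end need not cover a deleted part of a gene, so the level checks only the direction.

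Knockout Il9-zero cells differed from wild-type ones in 1969 of 8558 genes tested (23%), with 946 genes higher (11.1%) and 1023 lower (12%), by limma's moderated test on log2(ppm + 1), two-sided, with Benjamini-Hochberg adjustment at 0.05. Changes of at least 2-fold were mostly rises, 84 genes (0.982%) against 20 falls (0.234%). The 3 knockout and 3 wild-type values did not overlap for 3690 genes (43.1%). The largest rises were those of Il13, Csf2 and Gatm and the largest falls in Mndal, Trmo, Klf2, Akr1c18 and Foxp3. A gene is said to have risen or fallen only where its adjusted p was below 0.05, and differences are on the log2(ppm + 1) scale, which understates the change of low genes. With a library left out the counts ranged from 416 to 1764 higher and 348 to 1232 lower, the highest without E in both directions; without A, B or C they were 464, 476 and 416 higher and 381, 445 and 348 lower.

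Cytokine genes held the largest rises, those of Il13 and Csf2. Of the 22 in the table, 11 reached the 5 ppm needed for a test, and 7 of these rose and 1 fell (median 0.84, against -0.005 over all genes tested). With fixed cluster weights 6 rose and 1 fell and the median was 0.50, and it was 0.43 within cluster 0 and 0.32 within cluster 1. The 5 ppm limit is a mean over all 6 libraries. Il13, Csf2, Il1a and Inhba averaged less in wild type and reached it only through the knockout libraries. The counts and medians of this list are therefore descriptions. Il13, a type 2 cytokine that acts on epithelium and macrophages, stood at 1.38, 0.94 and 0.58 ppm in A, B and C and at 139, 10.8 and 67.0 ppm in D, E and F. All knockout libraries were above all wild-type ones, and E was the lowest of them. The difference was 4.64 (SE 0.74, adjusted p = 0.0045), and 5.66 without E. Csf2, which encodes GM-CSF, stood at 1.48, 0.35 and 0.49 ppm against 47.6, 13.2 and 17.3 ppm, a difference of 3.77 (SE 0.42, adjusted p = 0.0011). D was again the highest library and E the lowest of the knockout libraries.

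The other cytokine rises were smaller. Il1a (interleukin-1 alpha) stood at 3.04, 3.47 and 2.64 ppm in wild type and 20.1, 16.2 and 23.7 ppm in knockout, a difference of 2.36 (SE 0.14, adjusted p = 7.7e-05). Inhba, the beta A subunit of activin, a TGF-beta family ligand, stood at 2.84, 2.28 and 2.51 ppm against 29.1, 6.81 and 28.3 ppm, with E again apart from D and F. Penk (proenkephalin) rose by 1.81, Il2, the T cell growth factor, by 0.84 and Tnf by 0.57, and Il16 fell by 0.40. Lif, Tgfb1 and Mif did not pass, with differences of 0.19, 0.21 and -0.01. Below the 5 ppm needed for a test, Il5, another type 2 cytokine, stood at 0.10, 0.05 and 0.04 ppm against 3.57, 0.48 and 1.66 ppm. Il3 stood at 0.38, 0.07 and 0.20 ppm against 15.3, 0.36 and 2.98 ppm, so that E lay within the wild-type range. Il4, the cytokine supplied in the medium, stood at 0.29 to 1.89 ppm in wild type and 0.27 to 1.14 ppm in knockout, and the groups overlapped. Ifng stood at no more than 0.30 ppm in any library, and Il17a at no more than 0.54 ppm except for 5.82 ppm in F.

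Il13 (53631324 to 53634702) and Csf2 (54247271 to 54249667) both lie on the minus strand of chromosome 11 (mm10) and gave the largest rises, so the 250 bases before their RefSeq starts are shown (build GRCm38.p6, printed 5′ to 3′ along the gene's strand). The Il13 stretch is at chr11:53634703-53634952 and that of Csf2 at chr11:54249900-54250149; the RefSeq start of Csf2 lies upstream of the GENCODE one. Capitals mark every match, on either strand, to 4 motifs of factors that act downstream of the T cell receptor and of cytokine receptors. For AP-1 the letters searched were TGANTCA, and for NFAT they were TGGAAA. For STAT the search used TTCNNNGAA, and for GATA it used AGATAA.
Il13: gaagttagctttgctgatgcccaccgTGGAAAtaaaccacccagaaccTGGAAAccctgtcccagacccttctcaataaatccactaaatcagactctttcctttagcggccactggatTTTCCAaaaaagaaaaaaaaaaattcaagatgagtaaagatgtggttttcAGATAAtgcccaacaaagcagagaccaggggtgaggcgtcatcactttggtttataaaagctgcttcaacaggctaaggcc
Csf2: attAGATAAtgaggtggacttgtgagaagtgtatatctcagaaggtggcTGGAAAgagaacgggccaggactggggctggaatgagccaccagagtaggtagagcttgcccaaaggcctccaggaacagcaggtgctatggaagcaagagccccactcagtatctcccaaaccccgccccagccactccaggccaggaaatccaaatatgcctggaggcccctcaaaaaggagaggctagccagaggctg

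Il13 held NFAT matches starting 224, 202 and 131 bases before the start and a GATA match at 81. Csf2 held a GATA match at 247 and an NFAT match at 201, and neither stretch held an AP-1 or STAT match. The Csf2 stretch ends short of the GENCODE start at 54249667, so the bases next to that start were not searched. Such matches are common: the NFAT motif was in 18.7% and the GATA motif in 10.3% of the 27025 promoters listed. Among the 6825 tested genes with a listed promoter the NFAT motif was in 14.2%, among those that rose in 13.4% and among those that fell in 15.1%. The AP-1 motif was in 6.87% of all promoters listed, 3.44% of tested genes and 3.87% of those that rose. Among the 64 genes that rose at least 2-fold and had a promoter listed, the motifs were in 9.38% (AP-1, 6 genes), 12.5% (NFAT), 0% (STAT) and 3.13% (GATA). The matches describe letters and were not tested as binding sites.

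Single cells showed the rises of Il13 and Csf2 as more cells with counts. Il2 was already counted in most cells, 79.7% to 82.5% in wild-type and 83.4% to 94.1% in knockout libraries, while its mean level went from 404 to 742 ppm. Among Il9-zero cells, Il13 was counted in 0.90%, 0.64% and 0.94% of cells in A, B and C and in 32.4%, 8.18% and 26.6% in D, E and F. For Csf2 the shares were 0.95%, 0.87% and 0.54% against 26.1%, 12.6% and 14.1%. Gzmb (granzyme B, a protease of cytotoxic granules) was counted in 1.29%, 1.35% and 1.65% of cells against 17.4%, 5.18% and 14.3%. The groups did not overlap for 14 of the 16 genes compared, all except Il4 and Il24. Each of the 14 had an exact permutation p of 0.1, the smallest that 3 against 3 libraries allow (two-sided, 0.114 adjusted over the 16). The 16 genes were chosen with earlier results of these data known, so the count of 14 is a description. Cell shares were not compared over all genes, and for levels the groups did not overlap in 43.1% of genes tested. Cells with an Il13 value of at least 10 were 8.21%, 1.16% and 4.24% of Il9-zero cells in D, E and F and held 91.1%, 70.4% and 85.9% of the Il13 counts there. In A, B and C such cells were 0.19%, 0.08% and 0% (4, 2 and 0 cells) and held 64.5%, 65.6% and 0% of the counts. The 24 cells of deposited cluster 6 (median 24759 raw UMIs, against 38873 in Il9-zero cells) were the only ones outside clusters 0 to 5. There Il13 was counted in 16.7% of the 6 from wild type and 27.8% of the 18 from knockout libraries, Gzmb in 66.7% and 33.3%, and Csf2 in 5.56% of the latter and in 0 of the 6, too few cells to limit a share. These shares reach or pass those of knockout Il9-zero cells for Il13 in E and F and for Gzmb in all 3 libraries. Cluster 6 was not named and is not known to lack these genes, so no background from free RNA could be set, and its part in the shares was not tested.

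Within the knockout libraries, cells with Il13 also carried Csf2 more often. Csf2 was counted in 40.5%, 37.3% and 25.5% of Il9-zero cells with Il13 in D, E and F, and in 19.3%, 10.4% and 10.0% of those without it. Either transcript was present in 45.4%, 17.7% and 33.9% of Il9-zero knockout cells and in 1.31% to 1.71% of wild-type ones. The shares did not rest on 1 cluster. Within cluster 0 Il13 was counted in 0.80%, 0.78% and 1.27% of cells in A, B and C and in 34.8%, 8.24% and 25.6% in D, E and F. Within cluster 1 the Il13 shares were 0.51%, 0.62% and 0.36% against 21.9%, 8.62% and 17.1%, from 105, 441 and 76 cells in D, E and F. E was the lowest knockout library in both clusters. Csf2 was counted in 0.80%, 0.59% and 0.84% against 26.4%, 13.2% and 13.6% in cluster 0, and in at most 0.82% of wild-type cells against 21.9%, 10.2% and 6.58% in cluster 1. Within a library Il9 status separated these cells little: 34.9%, 8.48% and 28.5% of Il9-positive cells in D, E and F carried Il13, beside the 32.4%, 8.18% and 26.6% of Il9-zero cells.

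**Figure D2:**
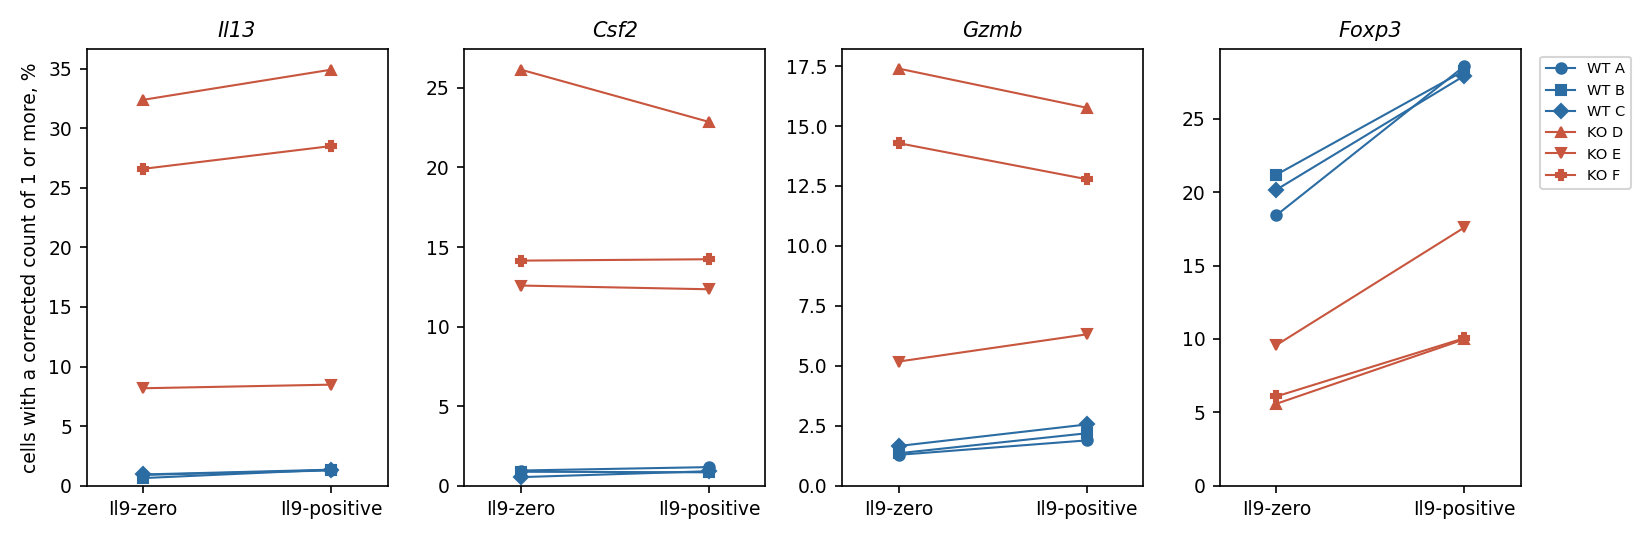
Percentage of cells with a corrected count of at least 1 for 4 genes, in Il9-zero and Il9-positive cells of each library joined by a line (blue, wild type; red, knockout). Knockout libraries lie above wild-type ones for Il13, Csf2 and Gzmb in both kinds of cell and below them for Foxp3, and Il9-zero cells carry Foxp3 less often than Il9-positive cells in all 6 libraries.

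Among chemokines 5 of the 11 in the table could be tested, with 1 rise and 1 fall (median -0.20). With fixed cluster weights 3 rose and 0 fell (median 0.30). Ccl20, which attracts CCR6-bearing cells, stood at 44.7, 32.3 and 39.5 ppm in wild type and 90.0, 108 and 106 ppm in knockout, a difference of 1.37 (SE 0.12, adjusted p = 0.0004). Ccl4, a CC chemokine, stood at 125, 132 and 118 ppm against 68.1, 88.3 and 94.8 ppm, a difference of -0.58 (adjusted p = 0.0085). Both moved with the cluster weights. Every Il9-zero cell of cluster 4 carried Ccl20, which may itself have helped to form that cluster. With fixed cluster weights Ccl20 rose by only 0.30 (adjusted p = 0.036), while Ccl4 had a difference of 0.18 (adjusted p = 0.24). The part of the cluster mix and of the genes' own change in this was not tested. Within cluster 0 Ccl20 was counted in 18.2%, 13.6% and 18.0% of Il9-zero cells in A, B and C and in 24.3%, 30.7% and 28.9% in D, E and F. Within cluster 1 the shares were 7.13%, 7.60% and 7.24% against 6.67%, 16.8% and 25%, with D below every wild-type library. Ccl3, another CC chemokine, averaged 17.5 ppm over A, B and C and 24.2 ppm over D, E and F and did not pass (0.38, adjusted p = 0.29). It rose by 1.17 with fixed cluster weights (adjusted p = 0.012), which draw on the few knockout cells of clusters 3 and 5. Ccl22, below the 5 ppm limit with 0.25, 0.40 and 0.35 ppm against 16.5, 6.39 and 5.26 ppm, was tested in cluster 1, where it rose by 2.64 (adjusted p = 0.044).

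Rises outside the cytokines joined metabolic, surface and transcription factor genes. Gatm, the first enzyme of creatine synthesis, stood at 7.07, 6.27 and 7.42 ppm in wild type and 37.2, 53.1 and 79.5 ppm in knockout, a difference of 2.80 (SE 0.22, adjusted p = 0.00031). F was the highest library for Gatm, where D was highest for Il13 and Csf2. Ly6a (Sca-1, a surface protein induced on activated T cells) stood at 1.51, 0.15 and 0.94 ppm against 9.05, 3.96 and 30.3 ppm. Its difference of 2.71 (adjusted p = 0.014) did not pass with a pseudocount of 10 (1.02, adjusted p = 0.0503), with a mean of log values over cells (0.30, adjusted p = 0.099) or without library C (2.77, adjusted p = 0.051), and within cluster 0 it did not pass without B or without C (adjusted p = 0.071 and 0.058). Gzmb rose by 2.65 from 0.50, 0.40 and 0.79 ppm to 17.8, 2.69 and 12.5 ppm (adjusted p = 0.0088). Cd70, the ligand of CD27, stood at 3.53, 2.53 and 2.29 ppm against 21.2, 15.3 and 19.3 ppm, a difference of 2.38 (adjusted p = 0.0001).

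The 4 remaining large rises were Ntrk3, a neurotrophin receptor, by 2.24, Sema4f, a semaphorin, by 2.21, Casz1, a zinc finger factor, by 2.12 and Nr4a2, an orphan nuclear receptor of the early activation response, by 2.06. Ntrk3 stood at 7.42, 6.17 and 5.89 ppm against 61.9, 22.2 and 29.3 ppm. Casz1 was the most even of these, with 1.45, 2.37 and 2.21 ppm against 10.5, 11.7 and 13.9 ppm. For each of the 12 largest rises the difference stayed above 0 and below the threshold in p within cluster 0, and the same held for the 7 that could be tested in cluster 1. The 12 were picked over cells that include those of both clusters, so this describes them and is no separate test.

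The largest falls were in genes of unlike function. Mndal, of the interferon-inducible Ifi200 family on chromosome 1, stood at 11.4, 11.3 and 10.4 ppm in wild type and 1.91, 2.32 and 1.36 ppm in knockout, a difference of -2.08 (SE 0.13, adjusted p = 0.0001). Trmo, a tRNA methyltransferase, stood at 8.94, 9.10 and 9.10 ppm against 1.57, 1.45 and 1.84 ppm, a difference of -1.94 (SE 0.10, adjusted p = 5.3e-05). Klf2, a factor that keeps naive T cells quiescent and in circulation, stood at 17.3, 19.0 and 14.1 ppm against 3.82, 8.34 and 3.53 ppm, a difference of -1.59 (adjusted p = 0.0045). Ifi203, a neighbour of Mndal that overlaps it in the annotation, was tested in cluster 0, where it fell by 1.77 (adjusted p = 0.00037). Reads of overlapping genes can be counted to either, so Mndal and Ifi203 may not be 2 separate results.

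Foxp3 stood at 11.6, 11.7 and 11.5 ppm in wild type and 2.85, 4.90 and 3.20 ppm in knockout libraries, a difference of -1.46 (SE 0.15, adjusted p = 0.00077). It was counted in 18.4%, 21.2% and 20.2% of wild-type and 5.58%, 9.58% and 6.08% of knockout Il9-zero cells. With fixed cluster weights the difference was -0.66 (adjusted p = 0.0027), and within cluster 1 it was -0.54 (adjusted p = 0.016). Within cluster 1 Foxp3 was counted in 31.7%, 34.7% and 32.4% of cells in A, B and C and in 20% to 25% in D, E and F, and within cluster 0 in 8.16%, 9.39% and 11.1% and in 3.83%, 5.39% and 3.68%. Nt5e (CD73, which makes adenosine) fell by 1.31, and by 1.52 and 1.25 within clusters 0 and 1, against 1.39 with fixed cluster weights.

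Akr1c18, an aldo-keto reductase that inactivates progesterone, showed the opposite case. It stood at 41.1, 45.3 and 42.5 ppm against 10.7, 13.9 and 17.2 ppm, a difference of -1.58 (adjusted p = 0.00045). With fixed cluster weights the difference was -0.08 (adjusted p = 0.56), and within cluster 0 it was -0.50 (adjusted p = 0.057). Socs2, a feedback inhibitor of cytokine signals, fell by 0.66 over all Il9-zero cells, had a difference of 0.06 with fixed weights (adjusted p = 0.56) and rose by 0.43 within cluster 0 (adjusted p = 0.0028). Il2 rose by 0.84 over all Il9-zero cells, with 0.49 at fixed weights (adjusted p = 0.058), 0.23 in cluster 0 (adjusted p = 0.091) and 0.32 in cluster 1 (adjusted p = 0.067). Over all genes, 763 of the 943 rises and 865 of the 1023 falls that could be tested with fixed weights were still called, and 1 and 3 of them changed sign. Of the 84 genes that rose at least 2-fold 83 could be tested and 83 were still called, as were 19 of the 20 that fell at least 2-fold.

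**Figure D3:**
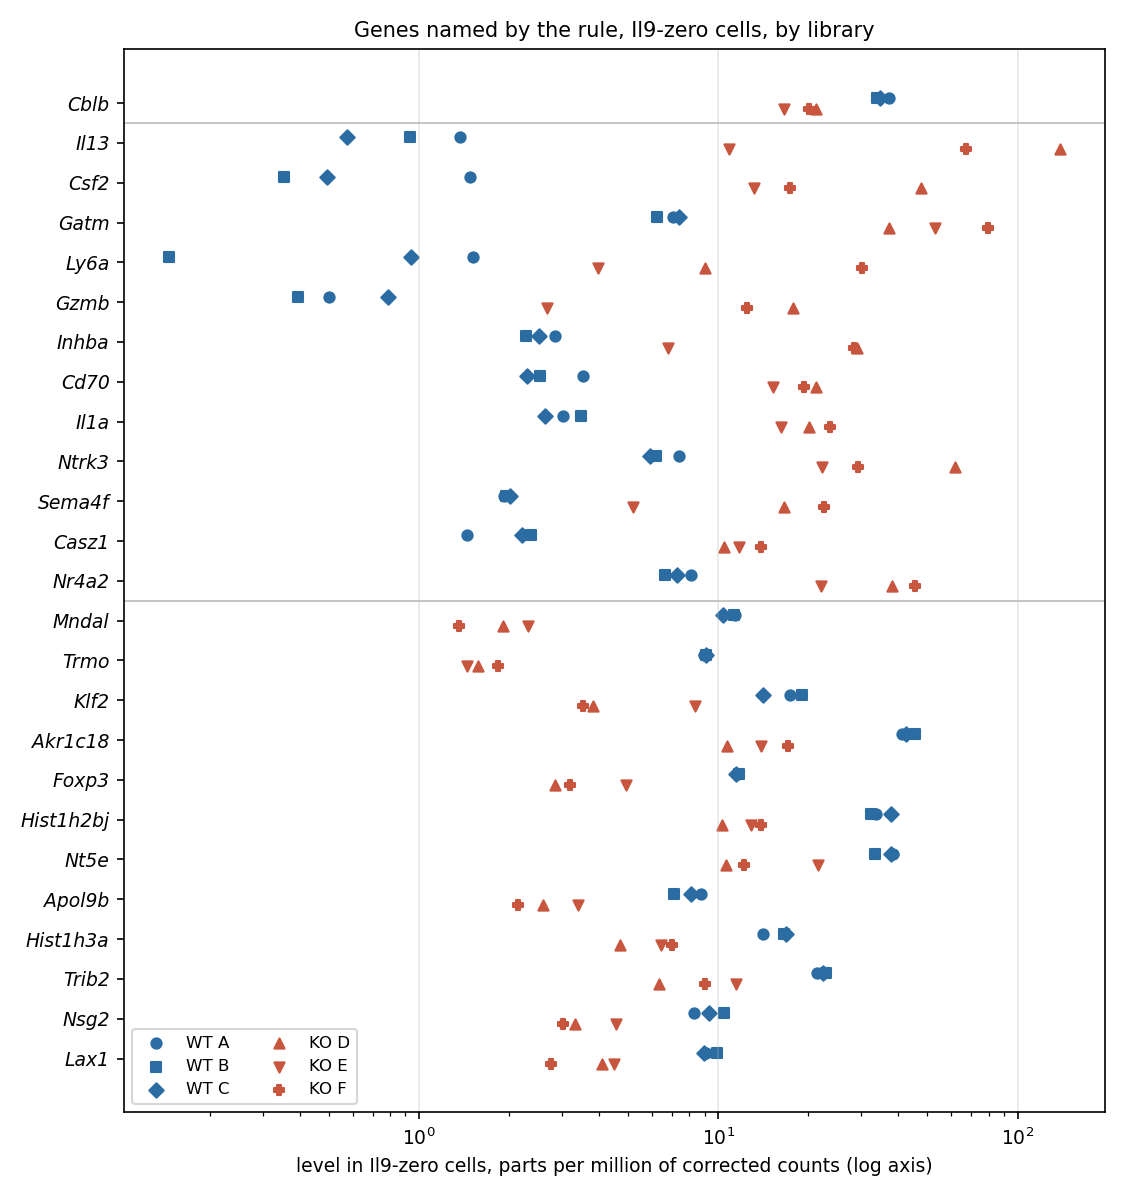
Level in Il9-zero cells, in ppm of corrected counts on a log axis, of Cblb and the 12 largest rises and 12 largest falls, with 1 point per library (blue, wild type; red, knockout). The groups do not overlap for any of these genes by the rule that chose them, and knockout library E is nearest to the wild type for 10 of the rises and 8 of the falls.

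**Figure D4:**
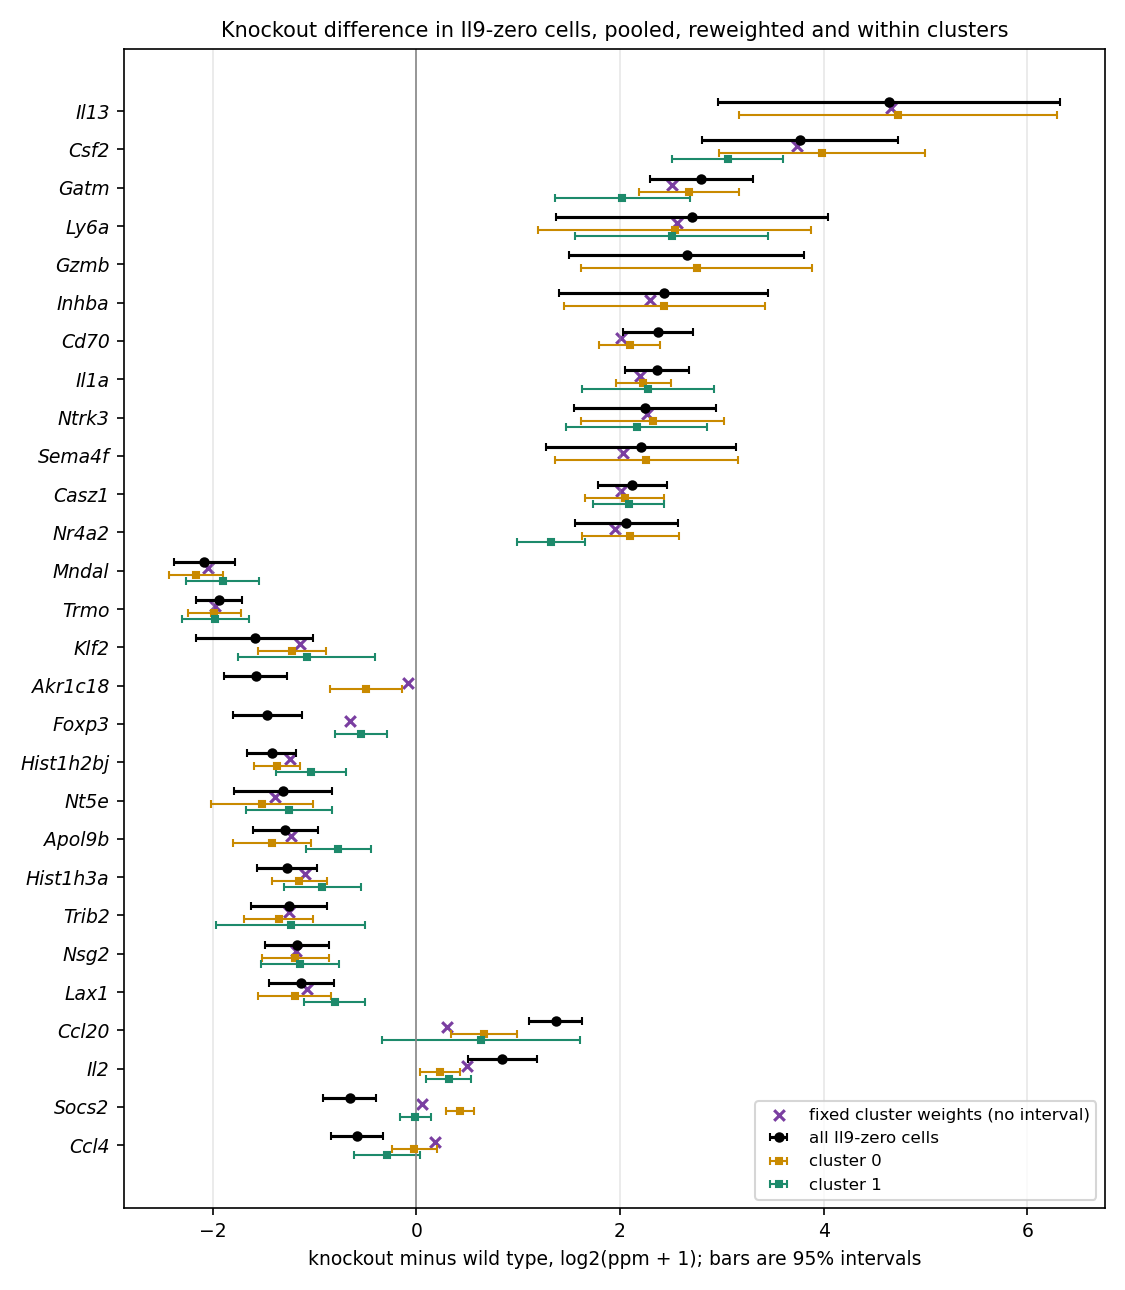
Knockout minus wild type on the log2(ppm + 1) scale with 95% intervals for all Il9-zero cells (black), cluster 0 (ochre) and cluster 1 (green), and the difference with fixed cluster weights (purple crosses, no interval). Crosses sit near the black points for most genes and near 0 for Akr1c18, Socs2 and Ccl4.

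Transcription factors of Th9 and type 2 cells gave 11 rises and 3 falls among 21 tested (median 0.25), and 10 and 3 with fixed cluster weights (median 0.11). Gfi1, which supports type 2 cell growth, stood at 18.1, 15.8 and 17.5 ppm against 36.0, 24.3 and 45.4 ppm and rose by 0.96. Batf and Batf3, AP-1 partners of IRF4, rose by 0.79 and 0.87, Bhlhe40 by 0.75 and Gata3, the type 2 lineage factor, by 0.38. Ahr fell by 0.88, Irf8 by 0.58 and Smad2 by 0.37. Within cluster 0 the counts were 10 and 3 of 21, and within cluster 1 they were 10 and 1 of 20.

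Genes of NF-kB signalling and of the TNF family rose together in number. Of 25 NF-kB genes 12 rose and 1 fell, among them Traf1 (47.6, 46.2 and 46.6 ppm against 86.0, 84.1 and 94.7 ppm, a rise of 0.90), Nfkb2 by 0.81, Bcl3 by 0.77 and the inhibitor Nfkbia by 0.56. Of 19 TNF family ligands and receptors 12 rose and 1, Ltb, fell (median 0.45). After Cd70 the largest rises were those of Fasl, the death receptor ligand, by 1.11, Tnfsf8 (CD30 ligand) by 0.85 and Cd40lg, the helper ligand for B cells, by 0.67. Tnfrsf9 (4-1BB) stood at 43.7, 47.2 and 47.4 ppm against 97.3, 52.3 and 77.2 ppm, and rose by 0.66.

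Of 25 immediate early genes tested 10 rose and 4 fell. Nr4a2, Ier3 (1.49), Fosl2 (1.44), Atf3 (0.88), Fos (0.75) and Junb (0.72) rose, while Egr1 and Egr3 fell by 0.30 and 0.36 and Egr2 rose by 0.31. Close to the T cell receptor, 6 of 44 signalling genes rose and 8 fell (median -0.04), beside 11.1% and 12% of all genes tested. With fixed cluster weights 6 rose and 10 fell. Within cluster 0 the counts were 5 and 10 of 44, and within cluster 1 they were 2 and 3 of 43. The members named next are single calls and do not give the list a direction. Themis rose by 0.71 and Cd5, a negative regulator, by 0.40. Among dampers of the signal, Ubash3a and the diacylglycerol kinases Dgka and Dgkz fell by 0.43, 0.37 and 0.28, while Ubash3b and Dok1 rose by 0.27 and 0.38. Among genes that carry the signal, Cd3e, Rasgrp1, Plcg1 and Pik3cd fell by 0.30, 0.37, 0.23 and 0.21. Themis had a difference of 0.48 with fixed cluster weights (adjusted p = 0.061). Among 13 other ubiquitin ligases of T cell tolerance 1, Nedd4, rose (7.72, 8.05 and 8.30 ppm against 11.9, 14.1 and 14.7 ppm, by 0.69).

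Naive and quiescence genes did not move one way, with 5 rises and 8 falls among 22, and 3 and 8 with fixed cluster weights. Klf2, Trib2 (by 1.25) and Nsg2 (by 1.17) fell and Tcf7 and Lef1, factors of naive and memory T cells, fell by 0.29 and 0.16. Satb1, a chromatin organizer, rose by 0.97 from 145, 136 and 148 ppm to 327, 200 and 334 ppm, and Il7r and Dapl1 rose by 0.81 each. Of 12 regulatory T cell genes 4 rose (Tnfrsf9, Il2ra, Ctla4 and Tnfrsf18) and 6 fell (Foxp3, Nt5e, Socs2, Nrp1, Izumo1r and Capg), with a median of -0.33. This list moved with the cluster weights: with fixed weights 3 of 12 rose and 4 fell and the median was 0.18. Il2ra, the high-affinity chain of the IL-2 receptor, stood at 224, 225 and 222 ppm against 346, 275 and 369 ppm, a rise of 0.55, and 1.03 within cluster 0.

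With fixed cluster weights some of these single calls were lost: Irf8 (-0.24, adjusted p = 0.083), Lef1 (-0.11, adjusted p = 0.098), Dapl1 (0.42, adjusted p = 0.095), Ctla4 (0.38, adjusted p = 0.054) and Izumo1r (-0.24, adjusted p = 0.16).

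Surface genes were mixed as well. Of 16 costimulatory and activation genes 7 rose and 3 fell, with Slamf7 up by 1.27 and Icos, a CD28 relative, down by 0.62 (54.7, 55.2 and 60.8 ppm against 35.2, 38.4 and 36.3 ppm). Of 12 inhibitory receptors and related genes 5 rose, among them Cd200 by 0.53, Lag3 by 0.52 and Ctla4 by 0.51, and 3 fell, Nt5e, Tox by 0.66 and Btla by 0.49. In the MHC class I list 11 of 19 rose, led by the nonclassical genes H2-Q6 (4.58, 4.69 and 4.87 ppm against 18.5, 10.9 and 17.7 ppm, by 1.51) and H2-Q7 by 1.22; H2-Q genes are near-identical copies, so reads may be split between them. The 2 members that fell, Pdia3 and Calr, are chaperones of the endoplasmic reticulum. Interferon-inducible genes gave 4 rises and 2 falls of 12, with Zbp1, a sensor of nucleic acids, up by 1.75 and Mndal and Ifi47 the members that fell. Among 16 genes of the IL-2 and STAT5 response 6 rose and 2 fell (6 and 0 of 15 with fixed cluster weights), with Socs1 up by 0.80 and Gzmb as above.

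**Figure D5:**
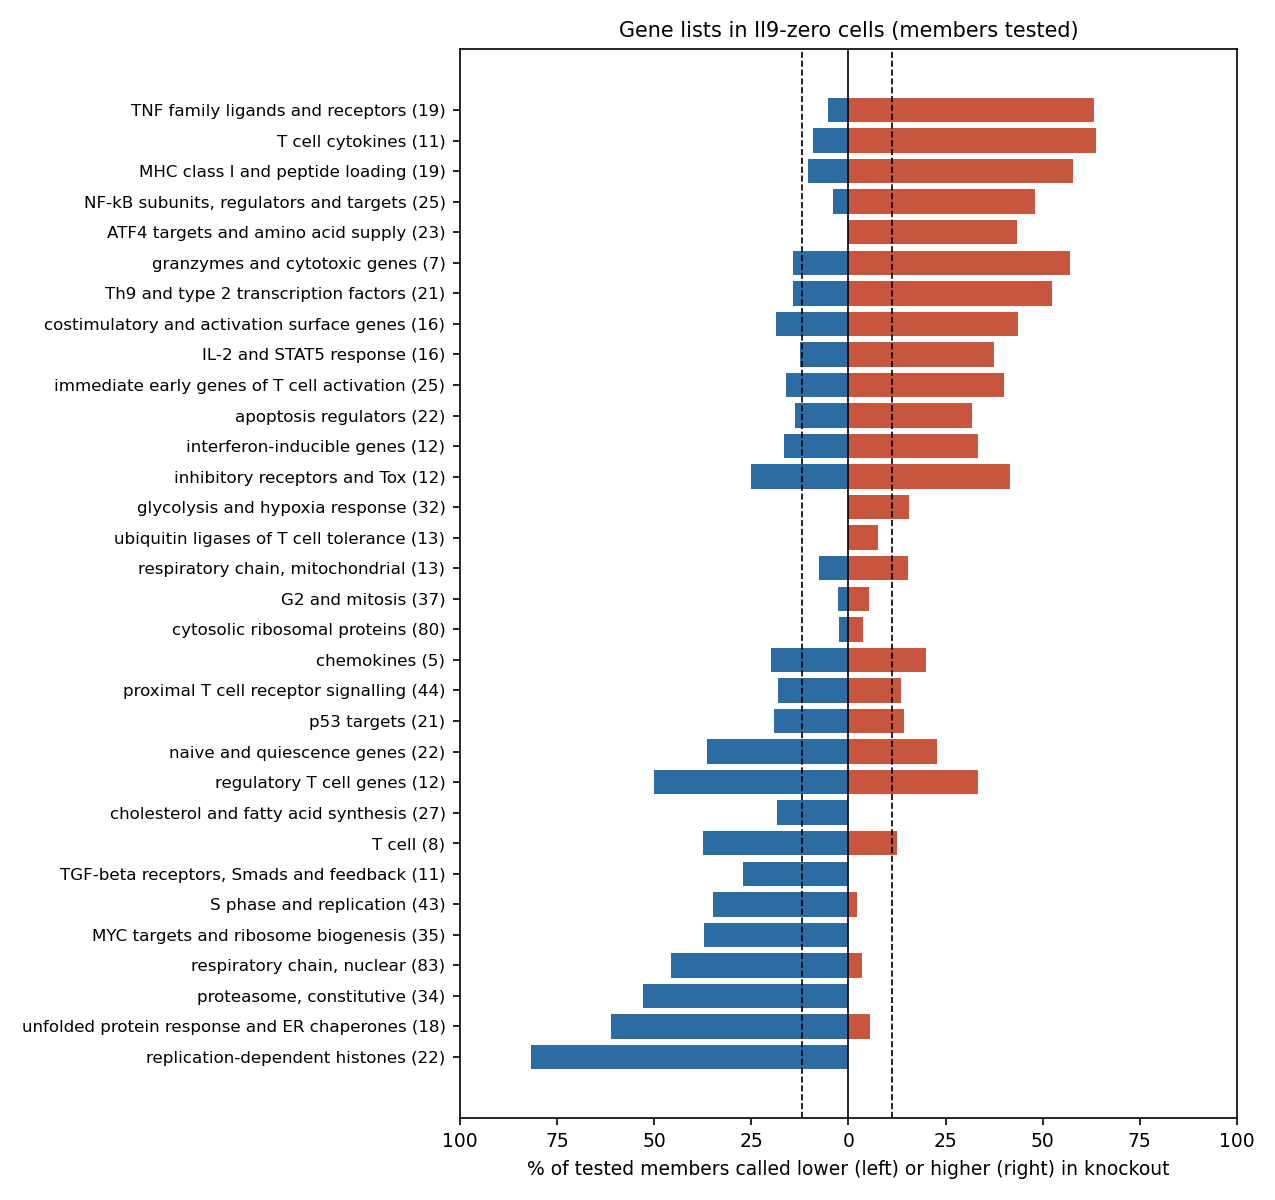
For each gene list with at least 5 tested members (number in brackets), the percentage of tested members that fell (blue, left) or rose (red, right) in knockout Il9-zero cells. Dashed lines mark the percentages over all genes tested, 12% lower and 11.1% higher. Histones (18 of 22 lower) lie at one end and cytokines (7 of 11 higher) and TNF family genes (12 of 19 higher) at the other. Genes low in wild type, such as Il13, Csf2 and Cd70, reached the 5 ppm test limit through the knockout libraries.

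Replication-dependent histones had the highest share of falls, 18 of 22 tested (64 in the table) and no rises, with a median of -0.58. Hist1h2bj stood at 33.6, 32.4 and 37.8 ppm against 10.3, 12.9 and 13.9 ppm, a fall of 1.42, and Hist1h3a and Hist1h1a fell by 1.27 and 1.12. These transcripts end without a poly(A) tail, while the libraries were built from polyA RNA, so the counts reflect only the tailed fraction. S phase genes fell in 15 and rose in 1 of 43, with Mcm6 and Mcm7, subunits of the replicative helicase, down by 0.32 and 0.30, whereas of 37 genes of G2 and mitosis 2 rose and 1 fell.

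Constitutive proteasome subunits fell in 18 of 34 with no rises (median -0.19), and nuclear genes of the respiratory chain fell in 38 and rose in 3 of 83 (median -0.14). Of 18 genes of the unfolded protein response 11 fell, with Sdf2l1 at 113, 100 and 113 ppm against 61.2, 66.4 and 75.5 ppm (a fall of 0.68), and only Sel1l rose, by 0.24. With fixed cluster weights MYC targets fell in 7 of 35, against 13 over all Il9-zero cells, with no rises in either (median -0.09 in both). Within cluster 0 there were 8 falls, and within cluster 1 there were 5 and 1 rise. The falls over all Il9-zero cells were led by Nme2 (by 0.48) and Nme1 (by 0.44). TGF-beta pathway genes gave no rises and 3 falls of 11; Tgfbr1, the type I receptor for the cytokine in the medium, stood at 34.3, 35.9 and 37.4 ppm against 20.1, 26.6 and 19.5 ppm and fell by 0.69. Cholesterol and fatty acid synthesis genes gave 0 rises and 5 falls of 27, and mitochondrially encoded respiratory genes 2 rises and 1 fall of 13. Granzymes and other cytotoxic genes gave 4 rises and 1 fall of 7 (2 and 1 of 6 with fixed cluster weights). Over all genes tested 11.1% rose and 12% fell, the shares to set beside each of these lists. The mitochondrially encoded genes lie near them and have no direction as a list. Cytosolic ribosomal protein genes changed seldom, with 3 rises and 2 falls of 80, 5 calls where 23% of all genes were called.

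ATF4 targets, the genes of amino acid synthesis and import that respond to amino acid shortage, went the other way. Of 23 tested 10 rose and none fell (median 0.34). Asns (asparagine synthetase) stood at 79.4, 76.6 and 42.2 ppm in wild type and 198, 160 and 121 ppm in knockout, a rise of 1.29 (SE 0.25, adjusted p = 0.0089). Slc7a3, a carrier of cationic amino acids, rose by 1.68 from 6.30, 6.68 and 3.23 ppm to 28.0, 16.0 and 14.7 ppm. Library C was the lowest wild-type library for both. In the glycolysis and hypoxia list 5 of 32 rose (median 0.16, and 0.10 with fixed cluster weights), with Hk2 up by 0.71 and Vegfa by 0.71, and Ndrg1, up by 0.81, had a difference of 0.68 with fixed cluster weights (adjusted p = 0.060). Within cluster 0 this list gave 5 rises and 0 falls (median 0.17), and within cluster 1 it gave 2 and 2 (median -0.03). Its members summed to 10509 to 11534 ppm in wild-type libraries and to 12183, 9380 and 13116 ppm in D, E and F. Of 21 p53 targets 3 rose and 4 fell, beside 11.1% and 12% of all genes tested, shares that also stand beside the 5 of 32 above. Plk2 and Cdkn1a rose by 1.18 each, while Trp53inp1 fell by 0.71. Of 22 apoptosis regulators 7 rose, with Bcl2a1b up by 0.59, and 3 fell, with Bcl2l11 (BIM) down by 0.54.

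Within cluster 0 alone, where each library gave 516 to 1299 Il9-zero cells, 1666 of 8557 genes differed (19.5%), 732 higher (8.55%) and 934 lower (10.9%). Its largest rises were Il13 (4.73), Csf2 (3.99), Gzmb (2.75), Gatm (2.68), Ly6a (2.54) and Inhba (2.43). Its largest falls were Mndal (-2.16), Trmo (-1.98), Ifi203 (-1.77), Nt5e (-1.52), Apol9b (-1.42), of the apolipoprotein L family, and Hist1h2bj (-1.37). Within cluster 1, with 76 to 974 cells a library, 948 of 8455 genes differed (11.2%), 473 higher (5.59%) and 475 lower (5.62%). Csf2 (3.06), Ccl22 (2.64), Ly6a (2.51), Il1a (2.27), Ntrk3 (2.17) and Tnip3 (2.16), an inhibitor of NF-kB, led its rises, and Trmo (-1.98), Mndal (-1.90), Igfbp7 (-1.56), Pdlim5 (-1.34), Nt5e (-1.25) and Trib2 (-1.24) its falls. In cluster 1 Trib2 did not pass when any wild-type library was left out (adjusted p = 0.11 without A, 0.11 without B and 0.14 without C). Nor did Ccl22 (0.14 without A, 0.073 without B and 0.16 without C), which also did not pass without D (0.11) or E (0.12).

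Whether the knockout effect differed between clusters 0 and 1 was tested on the difference within each library. No gene of 8531 passed (0%) by limma, with 854 (10%) at an unadjusted p below 0.05. A prior variance taken along the mean level of a gene, chosen after the data were seen, gave 32 genes, and limma without a trend gave 1. Leaving out a library gave 307 to 1422 rises and 303 to 1172 falls in cluster 0 and 196 to 620 rises and 107 to 673 falls in cluster 1, fewest without C for each of the 4 counts. A gene called in 1 of the clusters alone is therefore not shown to differ between them.

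The same test by Il9 status asked whether the knockout effect in Il9-zero cells differed from that in Il9-positive cells of the same libraries, whose effects share the libraries but not the cells. No gene of 8487 passed (0%) by limma, while 1468 (17.3%) had an unadjusted p below 0.05 and the smallest adjusted p was 0.075. For Csf2 the effect was 3.77 in Il9-zero and 3.71 in Il9-positive cells, a difference of 0.06 (95% interval -0.45 to 0.57). For Trmo it was -1.94 in both (interval -0.14 to 0.14), for Nr4a2 2.06 and 1.98 (-0.06 to 0.23), for Cd70 2.38 and 2.55 (-0.47 to 0.11) and for Foxp3 -1.46 and -1.26 (-0.43 to 0.01). Intervals held 0 for 7 of the 12 largest rises and 7 of the 12 largest falls. Il13 had 4.64 against 3.95, a difference of 0.70 (0.24 to 1.15, adjusted p = 0.17), and 0.05 with fixed cluster weights. Klf2 had -1.59 against -1.27 (-0.47 to -0.16, adjusted p = 0.12).

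The count in this test depended on the variance model. The prior variance was taken along the mean of the tested values, here the mean difference; taken along the mean level of a gene, an alternative chosen after seeing the data, 487 genes passed, 214 higher and 273 lower, and without a trend 0. With the mean level and fixed cluster weights together 65 passed. Under the first model a pseudocount of 10 gave 78 genes, median-of-ratios scaling 24 and a bound of 10 for the Il9 value of Il9-positive cells 305. Directions within lists are given without a test. All 23 ATF4 targets tested had a difference above 0 (median 0.12), as did 32 of 35 MYC targets (median 0.06), against 47.0% of all genes (median -0.005). Other lists leaned the other way: 0 of 22 histones, 1 of 22 naive and quiescence genes, 1 of 13 mitochondrially encoded respiratory genes (12 of 13 with fixed cluster weights) and 5 of 43 S phase genes had a difference above 0. Asns had an effect of 1.29 in Il9-zero and 0.92 in Il9-positive cells, a difference of 0.36 (interval 0.23 to 0.49, adjusted p = 0.088). Wild-type Il9-zero cells held 66.0 ppm of it on average and wild-type Il9-positive cells 86.3 ppm, while knockout cells held 160 and 164 ppm. Mthfd2, a mitochondrial folate enzyme, had 0.47 against 0.31 (interval 0.10 to 0.21, adjusted p = 0.088) and Srm, spermidine synthase, -0.20 against -0.35 (interval 0.10 to 0.21, adjusted p = 0.084).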

How the data were processed

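The gene values are sctransform-corrected counts per cell, which the authors computed and deposited as whole numbers on a common depth; they are treated as a score and not as raw counts, per the file headers. The deposited table also gives the raw UMI count per cell and the percent of mitochondrial UMIs, and the authors' cluster numbers and library names. Cell Ranger 3.0.2, Seurat 3.0.0 and the mm10 build are named in the submitters' processing notes, with their roles not given in the sources used here. Raw totals ranged from 149381789 to 229387950 UMIs per library, with at least 15006 per cell. Doublets were not treated and cells were not thinned, since raw counts per gene were not used here.

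Corrected counts were summed over the Il9-zero cells of each library, divided by their total and expressed in ppm, and log2(value + 1) was compared with limma 3.58.1 in R 4.3.3 (trended prior, two-sided, Benjamini-Hochberg over every gene averaging 5 ppm or more, Il9 left out). Gene shares per library were compared by exact permutation. Named genes are the 12 largest rises and 12 largest falls with groups that do not overlap, the 6 largest each way within clusters 0 and 1, and members of 37 lists. The cells, lists and rules were chosen with earlier results of these data known. Promoters came from RefSeq tables. A few single genes are not reported here.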

Additional observations from a re-analysis of the deposited data

How the results depend on the processing

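No paired analysis was possible because the table's library names carry no replicate numbers, so the replicate block was not run. Over all Il9-zero cells a mean of at least 20 ppm left fewer genes tested and gave 548 rises. Leaving out a library gave 416 to 1764 rises and 348 to 1232 falls over all Il9-zero cells, 307 to 1422 and 303 to 1172 in cluster 0, and 196 to 620 and 107 to 673 in cluster 1; in each case the fewest came without C and the most rises without E where all cells or cluster 0 were tested. Without a filter on low values cluster 1 gave 309 rises and 251 falls. The difference by Il9 status gave 0 genes as fitted, 78 with a pseudocount of 10, 24 with median-of-ratios scaling, 305 with Il9-positive cells taken from a value of 10, 487 with the variance along the mean level, 65 with that and fixed cluster weights, and 0 to 2 with a library left out (2 without F). The difference between clusters 0 and 1 gave 0 as fitted, 32 along the mean level, 1 without a trend and 0 with any library left out. The cause of these shifts was not tested. The variance along the mean level, fixed weights for differences, and leaving out cluster 0 or shared barcodes were chosen after seeing the data. Single genes were followed under these settings only for Cblb, the 12 largest rises, the 12 largest falls and the 6 largest each way in clusters 0 and 1. Of their 744 values 726 kept their direction and side of the threshold, 18 kept the direction but did not pass and 0 reversed. All but Cblb had been picked as large, called and without overlap. Genes named only from lists were not among them, and of those Ccl4 and Socs2 changed sign with fixed cluster weights. The 3 libraries per group and the 707 cells of the smallest limit the precision.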
